A study of Homo sapiens with 4 samples.

Results

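The genes described here were lost in all 3 capmatinib-resistant derivatives of the lung cancer line EBC-1. A gene was counted as lost when each of the EBC-CR1, EBC-CR2 and EBC-CR3 libraries stood at least 3 log2 units under the EBC-1 parental library, where its deposited log2 level was 5 or more. Of 26364 listed gene symbols 11932 reached that level in EBC-1, and 50 of these met the fall in all 3 lines. CALB2, BATF, GPX3, PLXNA4, SDC2 and SMAD4 were left out by name, which leaves 44 lost genes. The genes were chosen by these measured log2 levels, so every difference from EBC-1 below is a description and carries no test. Lost is short for the thresholds, and a listed 0 does not prove that a transcript was absent.

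Each line gave 1 library. EBC-CR1, EBC-CR2 and EBC-CR3 are cultures grown out of EBC-1 under stepwise capmatinib up to 1.5 µmol/L, 2.2 µmol/L and 2.4 µmol/L and then kept in 1 µmol/L, at passages 64 to 66, 81 to 83 and 81 to 83, and EBC-1 is the parental line at passages 35 to 37. All 4 come from a human lung squamous cancer with amplified MET, the gene of the hepatocyte growth factor receptor, whose kinase capmatinib blocks. Drug selection, drug exposure and passage number cannot be told apart, and whether drug was present at RNA extraction is not stated in the labels. The labels do not say whether the resistant lines are clones. Inside the deposited files the headers carry the numbers of EBC-CR1 and EBC-CR3 exchanged. Sample labels are followed here, and under the headers' numbering the values of these lines would change places.

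As background, MET is a receptor tyrosine kinase that drives growth, survival and motility of epithelial cells through the RAS-ERK and PI3K-AKT pathways. PHLDA1, CCND1 and the ETS factor genes ETV4 and ETV5, which appear below among neighbours and relatives of the lost genes, are known to respond to RAS-ERK signalling. RNA levels record transcripts and show neither protein nor gene copies.

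Values are log2(x + 1) of normalized units from 3′-end sequencing, in which a transcript is counted at its end and its length does not enter. Orders and bins of level below are of these deposited values. Estimated depth was 19.9 to 24.5 M reads in the resistant libraries and 32.9 M in EBC-1, and 9825 to 10272 symbols were listed at 0 in the resistant libraries and 10224 in EBC-1. An amount of 3 estimated reads corresponds to 2.5 to 3 units in the resistant libraries and 2.75 units in EBC-1. All 6 epithelial markers were above 0 in every library, with a summed log2 level of 15.95 to 16.09 in the resistant lines and 16.62 in EBC-1. Of the 6 squamous markers, 3 to 4 were listed at 0 in the resistant lines and 4 in EBC-1, with KRT5, KRT14 and KRT6A at 0 in all 4 libraries, so the squamous label rests on few of its markers. Their summed log2 level was 9.54 to 11.63 in the resistant lines and 6.46 in EBC-1, with TP63 at 6.65 to 11.32 in the resistant lines and at 0 in EBC-1, and SOX2 at 9.25 to 10.85 in the resistant lines and at 6.45 in EBC-1. The 4 erythroid markers summed to 14.21 in EBC-CR1, where 3 of the 4 were above 0, and were all at 0 in EBC-CR2, EBC-CR3 and EBC-1. The 5 leukocyte markers summed to 6.94 to 9.25 in the resistant lines and 4.13 in EBC-1, with ITGB2 leading in every library and PTPRC at 1.46 or under, the 5 fibroblast markers to 6.45 to 7.29 in the resistant lines and 5.56 in EBC-1, and the 4 endothelial markers to at most 1.81. The part of these transcripts in the results for EBC-CR1 was not tested. When only EBC-CR2 and EBC-CR3 had to meet the fall, 53 genes were lost. Asking for fewer lines cannot lower that count, so it does not bear on these transcripts.

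**Figure D1:**
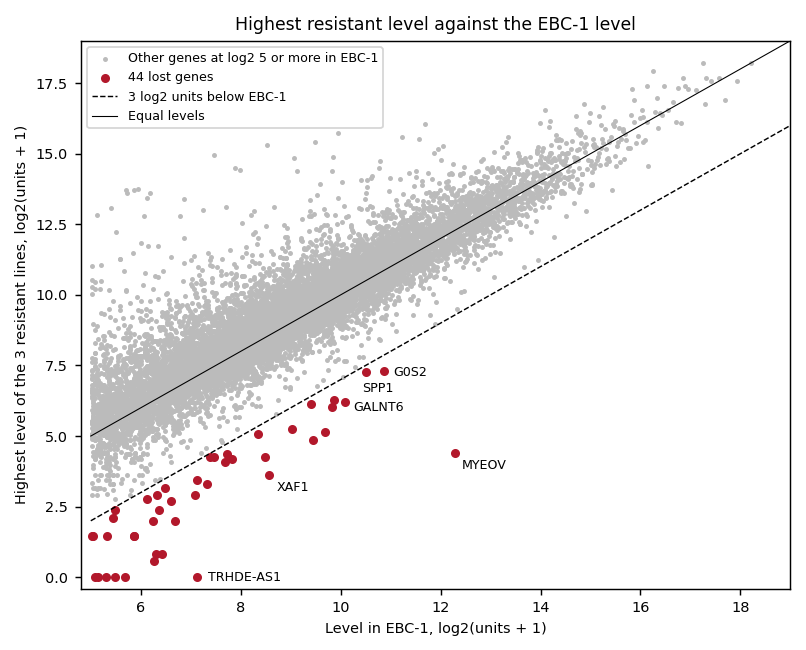
Each point is a gene at log2 5 or more in EBC-1. The vertical axis gives its highest level among the 3 resistant lines and the horizontal axis its level in EBC-1, both as log2(units + 1). The 44 lost genes (red) lie on or below the dashed line 3 log2 units under equality, and the 6 genes left out by name are not drawn. MYEOV stands furthest below the line at the high end, with a highest resistant level of 4.41 against 12.28 in EBC-1.

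The 50 genes past both thresholds are 0.419% of the 11932 genes at that level, and the rule fixes that share. A fall of 3 log2 units was met in EBC-CR1 by 175 genes (1.47%), in EBC-CR2 by 182 (1.53%) and in EBC-CR3 by 162 (1.36%). These comparisons share the EBC-1 library, so their overlap is not read further. The plot of the highest resistant level against the EBC-1 level shows the lost genes as the lower edge of the cloud. Lost genes made up 1.09% of the genes between log2 5 and 6 in EBC-1 (12 of 1100), 0.623% between 6 and 8 (19 of 3051), 0.232% between 8 and 10 (9 of 3880) and 0.103% at 10 or more (4 of 3901). The median EBC-1 level was 6.88 over the lost genes and 8.94 over all 11932.

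The median lost gene stood at log2 1.02 in EBC-CR1, at 2.55 in EBC-CR2 and at 1.46 in EBC-CR3. Its difference from EBC-1 was -5.10 for EBC-CR1, -4.66 for EBC-CR2 and -5.13 for EBC-CR3, where all 11932 genes had medians of -0.11, -0.12 and -0.13. With all values under 3 estimated reads raised to 3 reads, the medians of the lost genes were -4.06 for EBC-CR1, -3.88 for EBC-CR2 and -4.07 for EBC-CR3. The 3 lines thus had similar medians, and the size of the median turns on how values under 3 reads are treated. In bulk RNA, fewer cells that express a gene and less RNA of it per cell cannot be told apart.

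At the level threshold the members just inside were CTSE at log2 5.02 in EBC-1 and SERPINB9 at 5.04. Just outside were SH3RF3 at 4.92 and B3GALT5 and LOC101927318 at 4.86 each. At the fall threshold the members just inside had a smallest fall of 3.09 log2 units for CNIH3, 3.12 for BZRAP1-AS1 and 3.20 for NBEA, and just outside were MEF2C with 2.95, CRIP1 with 2.93 and SERPINE2 with 2.92. A further 42 genes met the fall from an EBC-1 level under 5.

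Of the 44 lost genes 6 were listed at 0 in all 3 resistant lines, among them TRHDE-AS1, ZPLD1, C6orf223, POF1B and RGS4. A further 9 were at 0 in 2 lines, 12 in 1 line and 17 in none. EBC-CR1 listed 19 of the lost genes at 0, EBC-CR2 11 and EBC-CR3 18. The rule asks for low values in the resistant lines, so such counts follow in part from it. The same counts were not made over the other genes at that EBC-1 level. At or under 3 estimated reads in every resistant line were 16 genes, and 11 genes were above 3 reads in all 3 lines, so most of the lost genes kept a few reads somewhere. Without EBC-CR2, 12 of the 44 were at 0 in both remaining lines, and 98 genes were lost instead of 44.

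The start sites of the 5 genes at 0 in all 3 lines that the RefSeq promoter table holds are shown because these members had no listed value above 0 in any resistant line. Each line is 300 bases around the annotated start in build GRCh38.p14, 5′ to 3′ on the strand of the gene, with CpG dinucleotides, the sites of DNA methylation, in capitals.
TRHDE-AS1: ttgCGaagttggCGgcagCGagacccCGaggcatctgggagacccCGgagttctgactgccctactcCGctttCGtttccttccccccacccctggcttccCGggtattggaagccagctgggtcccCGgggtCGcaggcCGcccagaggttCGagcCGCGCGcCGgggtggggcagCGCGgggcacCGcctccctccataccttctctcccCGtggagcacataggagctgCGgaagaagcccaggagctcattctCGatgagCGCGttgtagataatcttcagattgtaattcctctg
ZPLD1: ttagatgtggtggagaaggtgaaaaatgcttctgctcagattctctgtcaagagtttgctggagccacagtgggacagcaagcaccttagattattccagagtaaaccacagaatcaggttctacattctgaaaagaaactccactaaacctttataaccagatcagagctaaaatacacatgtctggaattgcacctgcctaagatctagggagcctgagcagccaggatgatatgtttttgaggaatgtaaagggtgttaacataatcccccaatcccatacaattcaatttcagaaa
C6orf223: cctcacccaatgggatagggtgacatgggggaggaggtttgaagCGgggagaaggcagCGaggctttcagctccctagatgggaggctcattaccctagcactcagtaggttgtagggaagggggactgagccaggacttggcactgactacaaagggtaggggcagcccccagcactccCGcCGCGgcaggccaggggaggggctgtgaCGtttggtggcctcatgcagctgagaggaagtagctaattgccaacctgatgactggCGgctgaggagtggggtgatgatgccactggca
POF1B: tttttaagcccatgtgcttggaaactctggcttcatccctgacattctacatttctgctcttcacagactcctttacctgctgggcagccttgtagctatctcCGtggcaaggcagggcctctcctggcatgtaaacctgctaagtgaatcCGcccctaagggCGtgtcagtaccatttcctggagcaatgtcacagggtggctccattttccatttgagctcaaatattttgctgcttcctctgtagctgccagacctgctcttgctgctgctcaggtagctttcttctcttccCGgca
RGS4: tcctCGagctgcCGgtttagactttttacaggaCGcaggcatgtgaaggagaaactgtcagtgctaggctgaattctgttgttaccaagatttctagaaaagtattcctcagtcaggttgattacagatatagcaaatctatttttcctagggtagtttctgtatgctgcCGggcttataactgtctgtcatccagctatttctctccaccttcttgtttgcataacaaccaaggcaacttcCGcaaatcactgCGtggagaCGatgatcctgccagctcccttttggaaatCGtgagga

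The windows differed widely in CpG content. TRHDE-AS1, on chromosome 12 (chr12:72273460-72273759, minus strand), held 24 CpG dinucleotides with an observed over expected ratio of 0.783. ZPLD1 (chr3:102434765-102435064, plus strand) held 0 of them. C6orf223 (chr6:44000335-44000634, plus strand) held 7 with a ratio of 0.271, POF1B (chrX:85379616-85379915, minus strand) 4 with a ratio of 0.211, and RGS4 (chr1:163068621-163068920, plus strand) 8 with a ratio of 0.535. Over all 27305 promoters of the table the medians were 14 dinucleotides and a ratio of 0.580, so 1 of the 5 lay above both medians and 4 below. With both strands searched, the letters TATAAA occurred 1 time in the window of ZPLD1, on the strand opposite the gene. They were in none of the other 4 windows and in 11.95% of all promoters. The AP-1 letters TGANTCA and the cyclic AMP element TGACGTCA were in none of the 5 windows and in 7.76% and 1.98% of all promoters. DNA methylation and factor binding were not measured. No comparison over all lost genes was made, because the table holds promoters for 35 of the 44 (79.5%), under the minimum of 80% set for such a check.

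**Figure D2:**
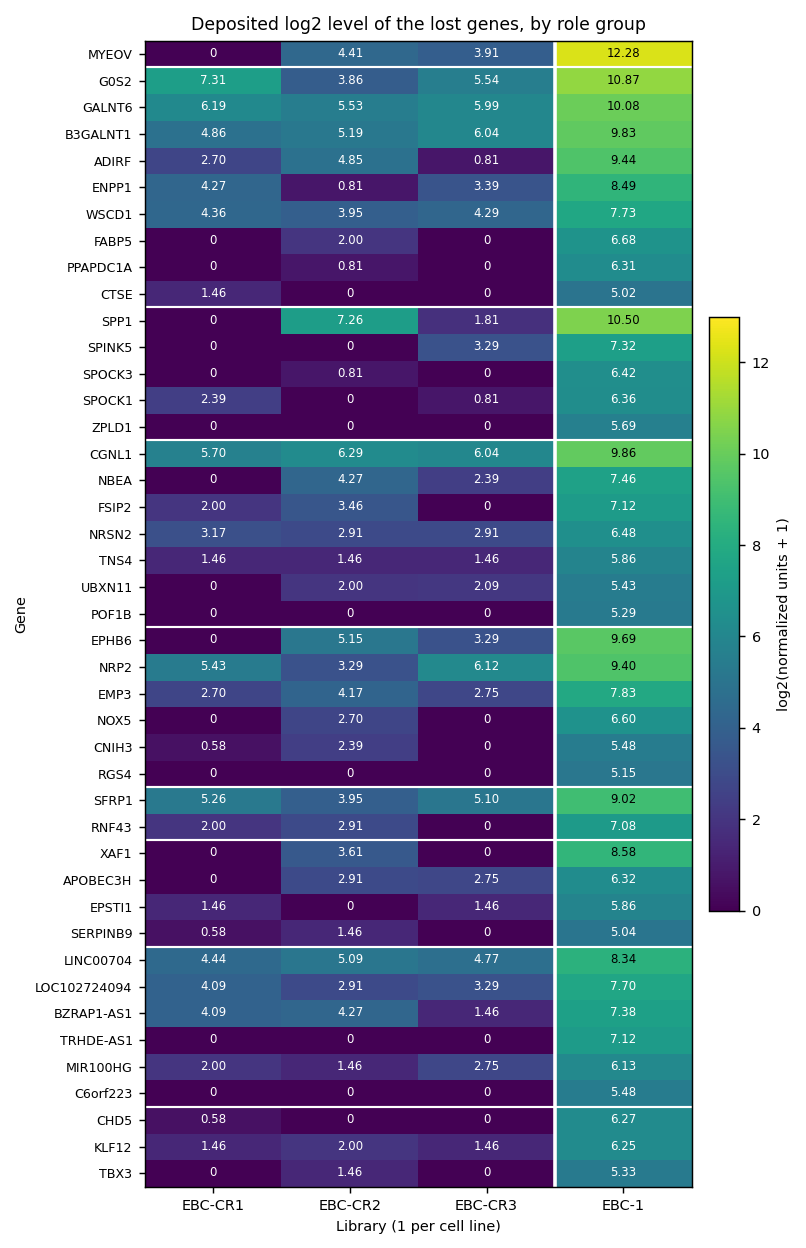
Deposited log2 level of 43 of the 44 lost genes (rows, in 9 role groups separated by white lines) in the 3 resistant libraries and in EBC-1 (columns). Colour and printed number both give log2(units + 1), and 0 is a value listed at 0. Every resistant cell is at least 3 units under the EBC-1 cell of its row, by the rule, and the resistant cells of a row often differ from each other, as for SPP1 at 0, 7.26 and 1.81.

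By function the lost genes were sorted into 9 role groups after their values were seen, and the heat map of levels follows these groups. RefSeq annotates 38 of them as protein coding and 6 as long noncoding RNA, and these kinds were not counted over all genes. The largest groups were 9 genes of sugar, lipid, nucleotide and protein metabolism, not all of them enzymes, and 7 genes of junctions, cytoskeleton and traffic, followed by 6 receptors and membrane signalling genes, 6 noncoding transcripts and 5 secreted or matrix proteins. Interferon and granzyme genes and transcription or chromatin genes numbered 4 each, and 2 restrain WNT signalling. MYEOV, which is named for its overexpression in myeloma and lies beside the cyclin D1 gene CCND1 on chromosome 11, was kept apart because its function is not established.

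MYEOV was listed at 0 in EBC-CR1 and was at log2 4.41 in EBC-CR2 and 3.91 in EBC-CR3, against 12.28 in EBC-1. Its estimated reads were 0 in EBC-CR1, 18 in EBC-CR2, 16 in EBC-CR3 and 6546 in EBC-1. Its difference was -7.87 in EBC-CR2 (95% counting interval -8.70 to -7.28) and -8.37 in EBC-CR3 (-9.28 to -7.77). It ranked 1001 among the listed values of EBC-1, and all 3 resistant libraries lay far under it.

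Among secreted and matrix proteins the clearest disagreement between the resistant lines was in SPP1, the gene of osteopontin, a glycoprotein that binds integrins and CD44. SPP1 was listed at 0 in EBC-CR1 and was at 7.26 in EBC-CR2 and 1.81 in EBC-CR3, against 10.50 in EBC-1. EBC-CR2 kept 121 estimated reads, EBC-CR3 3 and EBC-CR1 0, and the difference of EBC-CR2 from EBC-CR3 was 5.45 log2 units (4.34 to 8.22). SPP1 thus remained well detected in EBC-CR2 and was at or under 3 reads in EBC-CR1 and EBC-CR3.

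SPOCK1 and SPOCK3 encode testicans, proteoglycans of the extracellular matrix. SPOCK1 was at 2.39 in EBC-CR1, listed at 0 in EBC-CR2 and at 0.81 in EBC-CR3, against 6.36 in EBC-1. SPOCK3 was listed at 0 in both EBC-CR1 and EBC-CR3 and was at 0.81 in EBC-CR2, against 6.42 in EBC-1. Neither testican had more than 4 estimated reads in a resistant library. SPINK5 encodes LEKTI, an inhibitor of kallikrein proteases in stratified epithelium. It was listed at 0 in both EBC-CR1 and EBC-CR2 and was at 3.29 in EBC-CR3 (10 estimated reads), against 7.32 in EBC-1. ZPLD1, which encodes a zona pellucida domain protein known from the inner ear, was listed at 0 in the 3 resistant lines, against 5.69 in EBC-1. In this group every gene was at 0 in at least 1 resistant line.

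The receptors and membrane signalling genes differed in how much was left. EPHB6, an Eph receptor whose kinase domain is inactive, was listed at 0 in EBC-CR1 and was at 5.15 in EBC-CR2 and 3.29 in EBC-CR3, against 9.69 in EBC-1. NRP2, a co-receptor for semaphorins and VEGF-C, was at 5.43 in EBC-CR1, at 3.29 in EBC-CR2 and at 6.12 in EBC-CR3, against 9.40 in EBC-1. EPHB6 was thus highest of the resistant lines in EBC-CR2 and NRP2 lowest there. For NRP2 the difference of EBC-CR2 was -2.83 from EBC-CR3 (-4.24 to -1.91), and that of EBC-CR1 from EBC-CR2 was 2.14 (1.13 to 3.58).

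EMP3, a membrane protein of the PMP22 family, was at 2.70 in EBC-CR1, at 4.17 in EBC-CR2 and at 2.75 in EBC-CR3, against 7.83 in EBC-1. NOX5, a calcium-activated NADPH oxidase, was listed at 0 in both EBC-CR1 and EBC-CR3 and was at 2.70 in EBC-CR2, against 6.60 in EBC-1. Both kept most in EBC-CR2. CNIH3, a cornichon that accompanies glutamate receptors, was at 0.58 in EBC-CR1, at 2.39 in EBC-CR2 and at 0 in EBC-CR3, against 5.48 in EBC-1. RGS4, which speeds the shut-off of G proteins, was listed at 0 in the 3 resistant lines, against 5.15 in EBC-1 (43 estimated reads). The last 2 genes rest on few reads even in EBC-1, and CNIH3 overlaps the gene WDR26.

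Both genes that restrain WNT signalling were low in every resistant line. SFRP1, a secreted protein that binds WNT ligands, was at 5.26 in EBC-CR1, at 3.95 in EBC-CR2 and at 5.10 in EBC-CR3, against 9.02 in EBC-1. RNF43, a ubiquitin ligase that removes Frizzled receptors from the cell surface, was at 2.00 in EBC-CR1, at 2.91 in EBC-CR2 and at 0 in EBC-CR3, against 7.08 in EBC-1. SFRP1 kept 13 to 36 estimated reads in the resistant lines and RNF43 at most 6. ZNRF3, the close relative of RNF43 with the same role, was at 9.24 in EBC-CR1, at 9.10 in EBC-CR2 and at 9.22 in EBC-CR3, against 9.34 in EBC-1, so the pair did not move together. RNF43 overlaps BZRAP1-AS1, another lost gene, and without known strand handling their reads cannot be told apart.

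The 9 metabolic genes held several of the better measured members. G0S2, an inhibitor of the fat-splitting lipase ATGL, was at 7.31 in EBC-CR1, at 3.86 in EBC-CR2 and at 5.54 in EBC-CR3, against 10.87 in EBC-1. Its 137, 12 and 48 estimated reads separate all 3 resistant lines, with EBC-CR1 3.45 log2 units above EBC-CR2 (2.69 to 4.53) and 1.77 above EBC-CR3 (1.31 to 2.29). ENPP1, which makes pyrophosphate from extracellular ATP and also degrades the signalling nucleotide cGAMP, was at 4.27 in EBC-CR1, at 0.81 in EBC-CR2 and at 3.39 in EBC-CR3, against 8.49 in EBC-1. Both genes were lowest in EBC-CR2, the line in which SPP1 and EPHB6 were highest.

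GALNT6, which starts mucin-type O-glycans, was at 6.19 in EBC-CR1, at 5.53 in EBC-CR2 and at 5.99 in EBC-CR3, against 10.08 in EBC-1. B3GALNT1, which makes the glycolipid globoside, was at 4.86 in EBC-CR1, at 5.19 in EBC-CR2 and at 6.04 in EBC-CR3, against 9.83 in EBC-1. WSCD1, a sulfotransferase for sialic acid, was at 4.36 in EBC-CR1, at 3.95 in EBC-CR2 and at 4.29 in EBC-CR3, against 7.73 in EBC-1. All 3 sugar-modifying enzymes kept 13 or more estimated reads in every resistant library. GALNT6 overlaps SLC4A8, its neighbour on chromosome 12, which was also lower in all 3 resistant lines.

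ADIRF, a small protein that promotes fat cell differentiation, was at 2.70 in EBC-CR1, at 4.85 in EBC-CR2 and at 0.81 in EBC-CR3, against 9.44 in EBC-1. FABP5, a fatty acid carrier of epidermis, was listed at 0 in both EBC-CR1 and EBC-CR3 and was at 2.00 in EBC-CR2, against 6.68 in EBC-1. FABP5 has near-identical pseudogene copies, which makes its count uncertain, and ADIRF overlaps AGAP11. PPAPDC1A (PLPP4 in RefSeq), a lipid phosphatase, was at 0.81 in EBC-CR2 and listed at 0 in both EBC-CR1 and EBC-CR3, against 6.31 in EBC-1. CTSE, an intracellular aspartic protease of gastric epithelium, was at 1.46 in EBC-CR1 and at 0 in both EBC-CR2 and EBC-CR3, against 5.02 in EBC-1. These last 3 genes had at most 3 estimated reads in any resistant line.

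Of the junction, cytoskeleton and traffic genes CGNL1 kept the most estimated reads in each resistant line. CGNL1, which encodes paracingulin, a scaffold of cell junctions, was at 5.70 in EBC-CR1, at 6.29 in EBC-CR2 and at 6.04 in EBC-CR3, against 9.86 in EBC-1. NBEA, a BEACH protein of vesicle traffic, was listed at 0 in EBC-CR1 and was at 4.27 in EBC-CR2 and 2.39 in EBC-CR3, against 7.46 in EBC-1. FSIP2, a protein of the sperm tail sheath, was at 2.00 in EBC-CR1, at 3.46 in EBC-CR2 and at 0 in EBC-CR3, against 7.12 in EBC-1. CGNL1 thus had the smaller spread between the resistant lines, and NBEA was highest in EBC-CR2.

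NRSN2, a neuronal vesicle protein, was at 3.17 in EBC-CR1, at 2.91 in EBC-CR2 and at 2.91 in EBC-CR3, against 6.48 in EBC-1. TNS4, a tensin of focal adhesions that binds the MET receptor, was at 1.46 in each resistant line (2 estimated reads), against 5.86 in EBC-1 (73 estimated reads). UBXN11, a UBX domain protein, was listed at 0 in EBC-CR1 and was at 2.00 in EBC-CR2 and 2.09 in EBC-CR3, against 5.43 in EBC-1. POF1B, an actin-binding protein of epithelia, was listed at 0 in the 3 resistant lines, against 5.29 in EBC-1. None of these 4 genes had more than 8 estimated reads in a resistant library, which leaves little to order the resistant lines by, and UBXN11 overlaps CD52.

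The genes linked to interferon, viral defence and granzymes were each at 0 in at least 1 resistant line. XAF1, an interferon-induced protein that binds the apoptosis inhibitor XIAP, was listed at 0 in both EBC-CR1 and EBC-CR3 and was at 3.61 in EBC-CR2, against 8.58 in EBC-1. APOBEC3H, a cytidine deaminase that acts against retroviruses, was listed at 0 in EBC-CR1 and was at 2.91 in EBC-CR2 and 2.75 in EBC-CR3, against 6.32 in EBC-1. XAF1 had 10 estimated reads in EBC-CR2 and 501 in EBC-1, and APOBEC3H at most 7 in a resistant line. EPSTI1, an interferon-inducible gene, was at 1.46 in EBC-CR1, at 0 in EBC-CR2 and at 1.46 in EBC-CR3, against 5.86 in EBC-1. SERPINB9, the inhibitor of granzyme B, was at 0.58 in EBC-CR1, at 1.46 in EBC-CR2 and at 0 in EBC-CR3, against 5.04 in EBC-1. These pairs of values lie at or under 3 reads in every resistant line.

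The transcription and chromatin genes were near the limit of detection in all resistant lines. CHD5, a nucleosome remodeller of neurons and testis, was at 0.58 in EBC-CR1 and at 0 in both EBC-CR2 and EBC-CR3, against 6.27 in EBC-1. KLF12, a zinc finger repressor, was at 1.46 in EBC-CR1, at 2.00 in EBC-CR2 and at 1.46 in EBC-CR3, against 6.25 in EBC-1. CHD5 had 100 estimated reads in EBC-1 and KLF12 99, and both had 3 or fewer in each resistant line. TBX3, a T-box repressor of limb and breast development, was listed at 0 in both EBC-CR1 and EBC-CR3 and was at 1.46 in EBC-CR2, against 5.33 in EBC-1.

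Of the noncoding transcripts LINC00704 and LOC102724094 were above 3 estimated reads in every resistant line. LINC00704 (MANCR in RefSeq), a long noncoding RNA of dividing cells, was at 4.44 in EBC-CR1, at 5.09 in EBC-CR2 and at 4.77 in EBC-CR3, against 8.34 in EBC-1. MIR100HG, the host transcript of 3 microRNAs, was at 2.00 in EBC-CR1, at 1.46 in EBC-CR2 and at 2.75 in EBC-CR3, against 6.13 in EBC-1. C6orf223, a noncoding transcript in RefSeq (LINC03040), was listed at 0 in the 3 resistant lines, against 5.48 in EBC-1. All 3 overlap another listed gene, which makes their counts uncertain.

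The other 3 noncoding members are antisense transcripts, and each is given with the gene on the opposite strand. TRHDE-AS1 was listed at 0 in the 3 resistant lines, against 7.12 in EBC-1 (182 estimated reads). TRHDE, the gene of an enzyme that degrades thyrotropin-releasing hormone, was also listed at 0 in the 3 resistant lines, against 4.17 in EBC-1. The antisense and sense transcripts were thus both undetected in the resistant lines. LOC102724094 (MUC12-AS1 in RefSeq) was at 4.09 in EBC-CR1, at 2.91 in EBC-CR2 and at 3.29 in EBC-CR3, against 7.70 in EBC-1, and the mucin gene MUC12 was at 3.88, 3.13 and 2.75 in these lines, against 5.29 in EBC-1. BZRAP1-AS1 (TSPOAP1-AS1 in RefSeq) was at 4.09 in EBC-CR1, at 4.27 in EBC-CR2 and at 1.46 in EBC-CR3, against 7.38 in EBC-1. Its sense gene BZRAP1 was at 6.74 in EBC-CR1, at 7.58 in EBC-CR2 and at 8.11 in EBC-CR3, against 6.77 in EBC-1, and so was not lower. In all, 15 of the 44 lost genes overlap another measured gene and 29 do not. Overlaps were not counted over all genes, so these counts are not read as a trait of the lost genes.

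**Figure D3:**
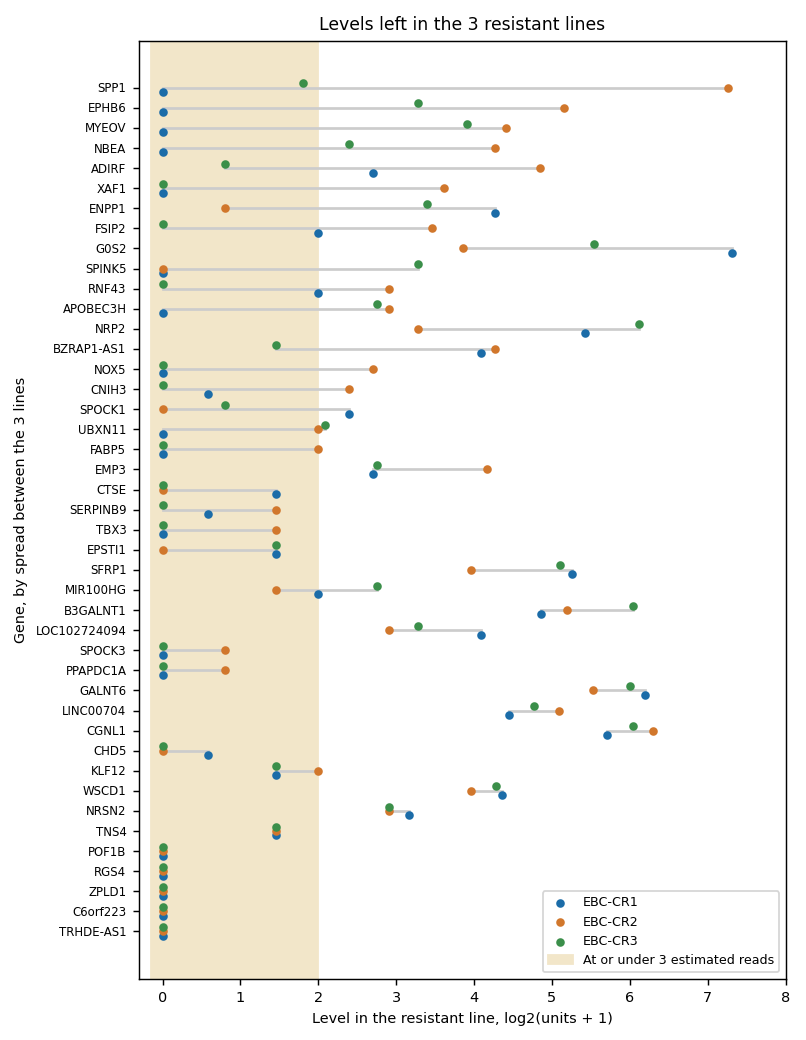
Level of 43 of the 44 lost genes in EBC-CR1 (blue), EBC-CR2 (orange) and EBC-CR3 (green), as log2(units + 1), with genes ordered by the distance between the highest and the lowest line (grey bar). Shading marks levels at or under about 3 estimated reads. SPP1 spans 0 to 7.26, and the bottom of the plot holds genes with the same value in all 3 lines, TNS4 at 1.46 and the others at 0.

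How evenly the genes were lost was described by the spread, the highest minus the lowest log2 level among the 3 resistant lines. The spread was 2 log2 units or more for 19 genes and under 1 for 16. It was not counted over all genes, so these counts are not read as a trait of the lost genes. The plot of levels left in the resistant lines shows these spreads, which reached 2 log2 units for 8 genes with a pseudocount of 5 and for 9 with low values raised to 3 estimated reads. The largest spreads were 7.26 for SPP1, 5.15 for EPHB6, 4.41 for MYEOV, 4.27 for NBEA and 4.04 for ADIRF, each of them highest in EBC-CR2. The smallest spreads among genes above 3 reads in every line were 0.26 for NRSN2, 0.40 for WSCD1, 0.59 for CGNL1, 0.64 for LINC00704 and 0.66 for GALNT6.

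Pairs of lines were compared by 95% counting intervals of their ratio, which cover counting error only and not the variation between cultures. Between EBC-CR1 and EBC-CR2 the interval excluded equality for 15 of the 44 genes, 5 higher and 10 lower in EBC-CR1, where 72.2% of the 14749 genes reaching 10 units in any library did so. Between EBC-CR1 and EBC-CR3 it did so for 10 genes, 2 higher and 8 lower in EBC-CR1, where the share of all genes was 61.7%. Between EBC-CR2 and EBC-CR3 it did so for 16 genes, 10 higher and 6 lower in EBC-CR2, where the share was 70.9%. The lost genes had at most 137 estimated reads in a resistant line, and the part of low reads in these smaller shares was not tested.

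Single genes show the range, from CGNL1 with 44 to 66 estimated reads in the resistant lines to TNS4 with 2 in each. For CGNL1 the difference of EBC-CR1 from EBC-CR2 was -0.59 (-1.19 to -0.03) and that of EBC-CR2 from EBC-CR3 was 0.26 (-0.26 to 0.78). For LINC00704 no pair of resistant lines differed beyond counting error, with -0.64 (-1.61 to 0.24) between EBC-CR1 and EBC-CR2 and 0.32 (-0.47 to 1.13) between EBC-CR2 and EBC-CR3. For EPHB6 EBC-CR2 lay 1.86 above EBC-CR3 (0.90 to 3.18). For ADIRF EBC-CR2 lay 4.04 above EBC-CR3 (2.59 to 10.57), where ADIRF had 1 estimated read. For TNS4 the interval between any pair of lines ran from -3.79 to 3.79, so equal listed values do not show equal levels at this depth.

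**Figure D4:**
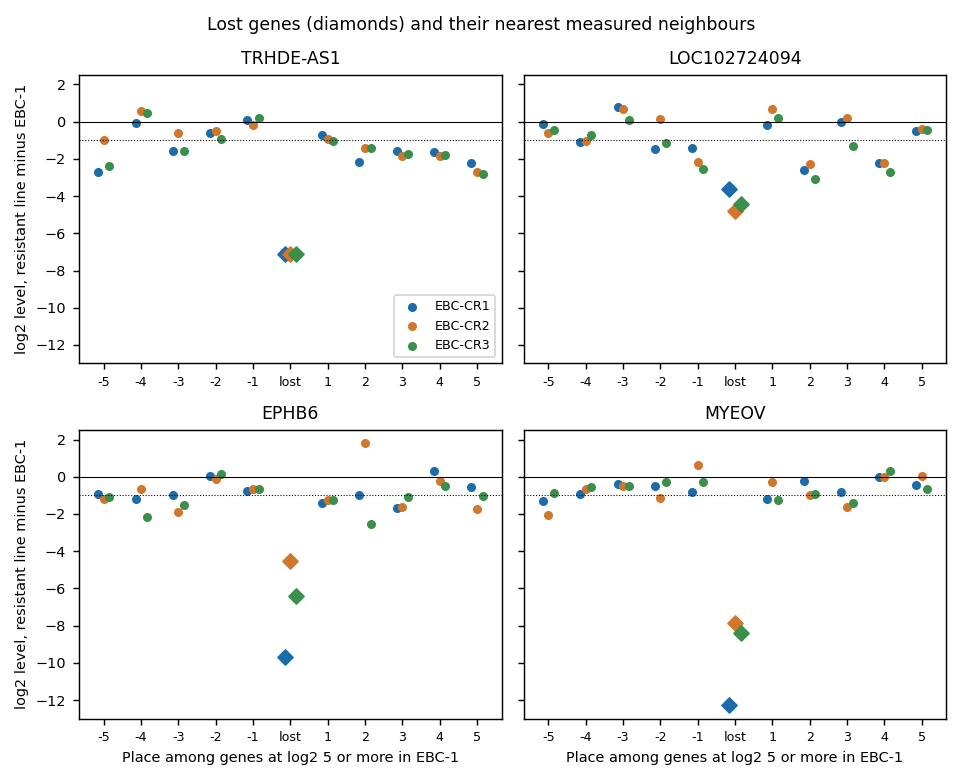
Difference from EBC-1 in log2 level for TRHDE-AS1, LOC102724094, EPHB6 and MYEOV (diamonds) and for the 5 nearest measured genes on each side (points), with EBC-CR1 in blue, EBC-CR2 in orange and EBC-CR3 in green. The horizontal axis gives the order among genes at log2 5 or more in EBC-1, and the dotted line marks 2-fold lower. Beside TRHDE-AS1, 5 of 10 neighbours lie under the dotted line in all 3 lines, and beside MYEOV 0 of 10.

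Chromosomal position was not used to choose the genes. The 44 lost genes lay on 18 chromosomes, with 6 each on chromosomes 1 and 17. The number of all measured genes per chromosome was not counted, so these numbers are not read further. RNF43 and BZRAP1-AS1, which overlap, were the only lost genes within 5 measured genes of each other. Of 425 neighbours, taken 5 on each side among genes at log2 5 or more in EBC-1, 30 (7.06%) were at least 2-fold lower in each resistant line, where 4.89% of all 11932 genes were. The 4.89% counts the genes that met the rule, which the neighbours leave out. Of the lower neighbours, SLC4A8, MUC12 and LOC101929705 overlap their lost gene and may share its reads. No neighbour at least 2-fold lower in each resistant line was found beside 26 lost genes, 1 beside 10 and 2 beside 6.

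TRHDE-AS1 had 5 such neighbours and LOC102724094 3. The neighbours of TRHDE-AS1 on chromosome 12 had median differences of -1.59 in EBC-CR1, of -0.98 in EBC-CR2 and of -1.49 in EBC-CR3. PHLDA1, a gene induced by growth factor signalling, had log2 differences of -2.22 in EBC-CR1, of -2.72 in EBC-CR2 and of -2.82 in EBC-CR3, and TSPAN8, a tetraspanin of epithelia, had -2.70, -1.01 and -2.37 in these lines. CAPS2, GLIPR1 and KRR1 were the other 3. The plot of neighbours shows such genes on both sides of TRHDE-AS1, mixed with genes such as TBC1D15, next to it, at 0.11 in EBC-CR1, at -0.18 in EBC-CR2 and at 0.20 in EBC-CR3.

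Beside LOC102724094 on chromosome 7 the lower neighbours included MUC12, its sense gene, and VGF, a secreted neuropeptide precursor. VGF had log2 differences of -2.23 in EBC-CR1, of -2.25 in EBC-CR2 and of -2.73 in EBC-CR3. TRIM56, which lies between VGF and LOC102724094, had differences of -0.21, 0.68 and 0.19. Genes past 2-fold lower thus alternated there with genes that were not. EPHB6 had GSTK1 and CASP2 as lower neighbours and CHD5 had ICMT and ACOT7.

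The 10 neighbours of MYEOV had median differences of -0.66 for EBC-CR1, -0.58 for EBC-CR2 and -0.60 for EBC-CR3. CCND1, the cyclin D1 gene next to MYEOV, differed by -1.18 for EBC-CR1, -0.30 for EBC-CR2 and -1.23 for EBC-CR3. On the other side TPCN2, an ion channel of endosomes and lysosomes, differed by -0.84 for EBC-CR1, 0.65 for EBC-CR2 and -0.31 for EBC-CR3. None of the 10 was at least 2-fold lower in all 3 lines. DNA copy number was not measured.

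**Figure D5:**
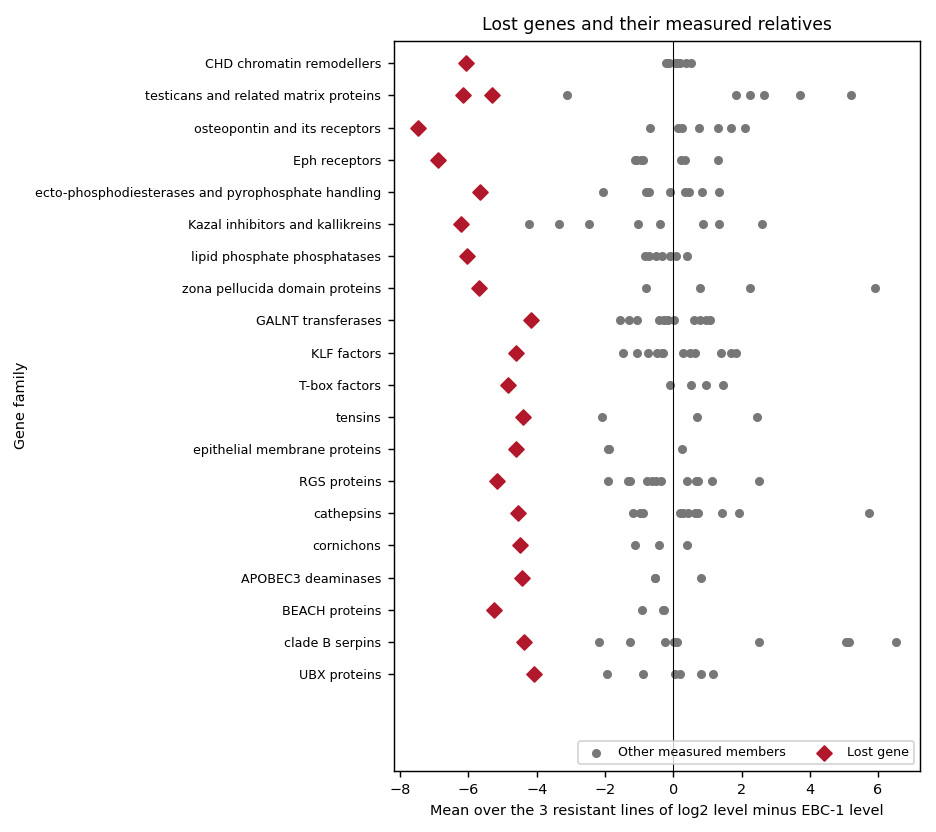
Mean over the 3 resistant lines of the log2 level minus the EBC-1 level, for lost genes (red diamonds) and for the other members of their families or lists that reached 10 units in any library (grey points). Families with at least 3 such members are drawn, and a listed 0 enters as 0. The lost genes lie at the left by the rule, and the other members lie on both sides of 0. On the list of testicans and related matrix proteins, TNC is at -3.11 and FSTL1 at 5.20.

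Relatives of the lost genes were read from 14 lists of families and partners, chosen with earlier results known, and from 20 families added after the values were seen. At least 2-fold lower in all 3 lines were 12 of the 121 other genes of the lists (9.92%) and 7 of the 90 of the added families (7.78%), where 5.33% of the 14749 genes reaching 10 units were. The 5.33% counts the genes that met the rule, which the relatives leave out. At least 2-fold higher in all 3 lines were 14 (11.6%) and 10 (11.1%), where 6.79% of all genes were. Some of the 14 lists hold no lost gene, and their genes are among the 121. Over lists and families that hold a lost gene 10 of 147 relatives were lower (6.80%) and 18 higher (12.2%). The relatives thus included both directions, and the plot of families shows the lost genes at the left of mostly scattered points.

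In some families the lost gene was the only member past a 2-fold difference. Among genes reaching 10 units, none of the 9 other CHD remodellers was 2-fold lower or higher in all 3 lines, and CHD4, of the NuRD complex, was at 13.16 in EBC-CR1, at 13.11 in EBC-CR2 and at 13.52 in EBC-CR3, against 12.73 in EBC-1. The same held for the 8 other Eph receptors, of which EPHA2 was at 11.86 in EBC-CR1, at 10.86 in EBC-CR2 and at 9.94 in EBC-CR3, against 11.98 in EBC-1. It held also for the 11 genes listed beside MYEOV and the 7 other lipid phosphate phosphatases. CGN, the relative of CGNL1, was at 8.89 in EBC-CR1, at 7.52 in EBC-CR2 and at 8.94 in EBC-CR3, against 8.16 in EBC-1, and B3GALNT2 was at 9.18, 9.21 and 9.04 in these lines, against 9.18 in EBC-1.

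In other families relatives were lower with the lost gene. NRP1, the other neuropilin, was at 9.29 in EBC-CR1, at 9.91 in EBC-CR2 and at 9.43 in EBC-CR3, against 11.14 in EBC-1, a smaller difference than that of NRP2. The list of Kazal inhibitors and kallikreins holds 8 genes beside SPINK5 that reached 10 units, among them ST14 and PRSS8, which are neither. KLK5 and KLK7, skin proteases that LEKTI inhibits, were at least 2-fold lower in all 3 lines. The other 6 were not past 2-fold in 1 direction in all 3. KLK7 was at 2.39 in EBC-CR1, at 4.85 in EBC-CR2 and at 1.46 in EBC-CR3, against 6.25 in EBC-1, and KLK5 was listed at 0 in both EBC-CR1 and EBC-CR2 and was at 0.81 in EBC-CR3, against 4.51 in EBC-1. KLK10, another kallikrein of the list, was at 8.02 in EBC-CR1, at 11.81 in EBC-CR2 and at 8.53 in EBC-CR3, against 10.47 in EBC-1, so the list was not uniform. PMP22, a relative of EMP3, was at 9.05 in EBC-CR1, at 7.69 in EBC-CR2 and at 8.52 in EBC-CR3, against 10.32 in EBC-1. FABP6, a bile acid carrier related to FABP5, was listed at 0 in EBC-CR1 and was at 4.17 in EBC-CR2 and 2.09 in EBC-CR3, against 5.83 in EBC-1.

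Elsewhere some relatives were higher while the lost gene was low. SPOCK2, the remaining testican, was at 7.79 in EBC-CR1, at 5.02 in EBC-CR2 and at 7.85 in EBC-CR3, against 3.17 in EBC-1. FSTL1, a related matrix glycoprotein, was at 10.07 in EBC-CR1, at 8.06 in EBC-CR2 and at 9.97 in EBC-CR3, against 4.17 in EBC-1, whereas TNC, the tenascin C gene on the same list, was at 6.92, 7.43 and 7.19 in these lines, against 10.29 in EBC-1. The testican list was thus split in direction. Of 7 other genes on the osteopontin list that reached 10 units, 2 were at least 2-fold higher in all 3 lines and none lower. CD44, 1 of these 2, was at 14.17 in EBC-CR1, at 13.63 in EBC-CR2 and at 13.98 in EBC-CR3, against 12.60 in EBC-1. Of 3 other tensins, relatives of TNS4, 1 was at least 2-fold higher in all 3 lines and none lower. This was TNS3, at 10.58 in EBC-CR1, at 10.15 in EBC-CR2 and at 10.67 in EBC-CR3, against 8.03 in EBC-1. TNS1 had a mean difference of -2.09 and TNS2 of 0.70.

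At least 2-fold higher in all 3 lines were 2 of 11 other cathepsins, CTSS and CTSF, and none was at least 2-fold lower in all 3. CTSD, CTSV and CTSZ had mean differences of -1.16, -0.89 and -0.96, but the lines disagreed. In EBC-CR2 CTSD was at 15.38, against 14.50 in EBC-1, and CTSZ at 9.35, against 9.21. CTSV was at 5.37 in EBC-CR2 and at 7.38 in EBC-CR3, against 7.48 in EBC-1. CTSS, a cysteine cathepsin, was at 6.60 in EBC-CR1, at 7.07 in EBC-CR2 and at 5.95 in EBC-CR3, against 0.81 in EBC-1. Of 9 other clade B serpins, SERPINB3, SERPINB4 and SERPINB13 had the same call and were listed at 0 in EBC-1, and none of the 9 was at least 2-fold lower in all 3 lines. The share of all genes with that call is 6.79%, and no more is read from these small counts. SERPINB4 was at 8.28 in EBC-CR1, at 3.29 in EBC-CR2 and at 8.06 in EBC-CR3. SERPINB3 and SERPINB4 have nearly the same sequence, and reads may have been split between them.

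Lists without a lost gene also held genes past 2-fold. Of 11 lineage factors, ETV1, ETV4 and ETV5, ETS factors that act downstream of ERK, were lower. ETV4 was at 8.27 in EBC-CR1, at 6.98 in EBC-CR2 and at 8.71 in EBC-CR3, against 11.11 in EBC-1, and ETV5 at 8.93, 7.57 and 8.44 in these lines, against 10.46 in EBC-1. MITF, the melanocyte lineage factor, was higher, at 11.52 in EBC-CR1, at 10.59 in EBC-CR2 and at 11.63 in EBC-CR3, against 9.30 in EBC-1. Of 19 genes of DNA methylation and Polycomb, TET1 and CBX8 were lower and none was higher. TET1, which oxidises methylated cytosine, was listed at 0 in both EBC-CR1 and EBC-CR3 and was at 2.70 in EBC-CR2, against 4.04 in EBC-1. Of 14 genes of cyclic GMP signalling 2 were lower and 3 higher. Of 8 genes of superoxide dismutases and copper handling 1 was lower and 2 were higher. The shares of all genes reaching 10 units were 5.33% lower and 6.79% higher, and no more is read from these small counts.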

How the data were processed

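Total RNA of 4 cultures was sequenced from transcript 3′ ends after Lexogen QuantSeq preparation, per the labels' protocols. The submitters' processing notes name Bowtie2, edgeR and hg19, with no role or order. The annotation and strand setting behind the counts were not given in the sources used here. Each deposited file lists 1 value per gene symbol, read here as log2 from the values themselves. After log2(x + 1) was undone, low deposited values were whole multiples of 0.25 units (100% of those checked, tolerance 0.0025), and sorted log2 values of the libraries differed by at most 0.81, as quantile normalization of whole counts would give. This is inferred from the values, and a global change in RNA amount cannot be seen in such data.

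Per the file headers, EBC-R3 heads the column of EBC-CR1 and EBC-R1 that of EBC-CR3. Estimated reads were taken by rank of the lowest 100 distinct values of a library and in proportion above. Ratio intervals are exact binomial at 95% from these reads, without correction for repeated molecules, and cover counting error only. They are of the ratio of units without the added 1, so a printed log2(x + 1) difference need not lie at the middle of its interval. With 1 library per line no test was possible and no p-value is given. Differences of low genes are understated on the log2(x + 1) scale.

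Genes given with all values were the 12 with the largest smallest fall, those at log2 8 or more in EBC-1, the 5 largest and 5 smallest spreads, up to 4 per role group by EBC-1 level, and antisense genes with their partners. The rest were added afterwards. Some genes that the rule takes are counted but not reported by name. Other genes of families were up to 3 per list by mean difference, beside counts, and ZNRF3, CCND1 and the neighbours named were added after their values were seen. The members and the lists were chosen with earlier results of these data known. Of the listed symbols 26132 matched RefSeq, which gave chromosomes, order and overlaps, and promoter sequences in build GRCh38.p14. Alternatives were other thresholds, a pseudocount of 5, centred ratios, a floor of 3 reads and leaving out each resistant line. Scripts in Python 3.11.15 (pandas 2.3.3, numpy 2.4.6, matplotlib 3.10.9, scipy 1.17.1) were tested on simulated data.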

Additional observations from a re-analysis of the deposited data

How the results depend on the processing

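The number of lost genes, 44 as reported, depended most on the thresholds. It was 86 with no level asked for in EBC-1, 126 with a fall of 2 log2 units, 20 with a fall of 4 and 25 when the upper end of the counting interval had to meet the fall in each line. Leaving out 1 resistant line at a time gave 53 to 98 lost genes, the highest without EBC-CR2, as fewer lines then had to meet the fall. It was 62 and 32 at EBC-1 levels of 4 and 6, 32 with a pseudocount of 5 and 44 with centred ratios or with a floor of 3 estimated reads, and the last 3 settings shared 32, 44 and 44 genes with those reported. Listed at 0 in all 3 lines were 6 genes, against 16 at or under 3 estimated reads and 7 to 12 when 1 line was left out. The number with a spread of 2 log2 units or more, 19, was 8 with a pseudocount of 5 and 9 with the 3-read floor. The median differences, -5.10 for EBC-CR1, -4.66 for EBC-CR2 and -5.13 for EBC-CR3, were -3.74, -3.47 and -3.76 in these lines with a pseudocount of 5, -4.06, -3.88 and -4.07 with the floor, and -4.16, -4.25 and -4.40 over genes above 0 in that line, the last chosen after seeing the data. Lower genes on the 14 lists, lost genes not counted, numbered 12 at 2-fold and 6 at 4-fold. The share of lower neighbours was 7.06% and 6.12% to 7.98% under the alternatives.

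No paired analysis was possible because each line has 1 library and no test was run. The alternative for promoter windows was not run, since the promoter table holds 35 of the 44 genes. Where the resistant lines are all at or under 3 estimated reads they cannot be ordered, and the absence of replicates leaves the variation between cultures unknown.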
